A study of Homo sapiens with 9 samples.

Results

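The 5 genes described here are the keratin genes KRT7, KRT8, KRT18 and KRT19 and the vimentin gene VIM, out of 36601 genes in the count tables. They were chosen by symbol and not by a cut on their values, though with earlier results of these data known. Each symbol named 1 row in the files of both days. Keratins are intermediate filament proteins that assemble in pairs, a type II keratin (KRT7 or KRT8) with a type I keratin (KRT18 or KRT19), and these 4 are the keratins typical of simple epithelia. VIM builds filaments on its own and is known from fibroblasts and other mesenchymal cells, and also from pluripotent stem cells in culture. In the early embryo, keratins mark the trophoblast, the amnion and the extra-embryonic endoderm, and KRT7 is widely used as a trophoblast and amnion marker.

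The cells came from hEEs (human extra-embryoids), aggregates in which an inner embryonic compartment lies within an outer hypoblast-like one. They were made from the wild-type human embryonic stem cell line ESI017, and no treatments were compared. Per the paper, the line was kept in an intermediate pluripotency state (hEPS), in medium with a WNT inhibitor and a ROCK inhibitor. ROCK inhibitor was also present at the start of aggregation, and the medium was changed before D4. One library of single-cell RNA from transcript 3′ ends was made on D4 and 1 on D6, each from pooled aggregates that had been picked for an inner and an outer compartment. The stem cells had been grown on inactivated CF-1 mouse embryonic fibroblasts, which were depleted on gelatin before aggregation. There were no replicates, so no test was run, the day and the library cannot be told apart, and the brackets hold 95% intervals, which take in counting error and nothing else.

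Cells were kept if their number of unique molecular identifiers (UMIs) lay between a lower and an upper limit, with at most 10% of UMIs from MT- genes, which left 19248 of 22426 barcodes, 9151 at D4 and 10097 at D6. The libraries shared 40 barcodes. The embryonic gate took cells with at least 5 UMIs of POU5F1, at least 1 of SOX2 and at most 2 of FN1, which 3716 cells of the D4 library and 5054 of the D6 library met. The hypoblast gate took cells with at least 3 UMIs of FN1, none of SOX2 and at most 5 of POU5F1, and held 4061 and 3567 cells. Within the embryonic gate, the cells with 2 or more UMIs of TFAP2A (81 and 350), an early amnion transcription factor, and those with 8 or more of TAGLN (465 and 115), an actin-binding protein, were read against the 3172 and 4591 other cells of the gate. Median depth was 15158 and 14226 UMIs in the embryonic gate and 11012 and 10902 in the hypoblast gate. The labels of the gates were checked on genes the rule did not use. Levels are given as UMIs per 1000000 UMIs of the group (CPM). APOA1 stood at 1621 CPM at D4 and 11926 at D6 in the hypoblast gate against 20.8 and 89.6 in the embryonic gate, and DPPA4 at 318 and 385 in the embryonic gate against 65.6 and 79.4. In the hypoblast gate 7 of 8 hypoblast markers at D4 and 8 at D6 were 2-fold or more higher. So were 5 of 5 amnion markers compared at D4 and 3 at D6, beside 10.5% and 12.1% of genes. Of 7 embryonic markers 5 were that much lower on each day, beside 7.42% and 10.3%.

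In RefSeq (GRCh38.p14, the build hg38 of the files), KRT7, KRT8 and KRT18 lie on chromosome 12, at 52233243 to 52255853, 52897191 to 52949860 and 52948855 to 52952906. KRT8 and KRT18 are on opposite strands and their annotated spans overlap by 1006 bases. KRT19 lies on chromosome 17, at 41523617 to 41528308, and VIM on chromosome 10, at 17228241 to 17237593. RefSeq also lists 52 pseudogenes of KRT8, 68 of KRT18 and 5 of KRT19, none of which is a row in the files, so how many reads these genes shared with such copies is uncertain. RefSeq's promoter windows run from 250 bases before to 50 after a start. In the set at hand 2 members had an entry, VIM and KRT8, and both are shown. VIM and KRT8 differed between the gates in opposite directions at D4. The set held no entry for KRT7, KRT18 and KRT19. The windows were searched on either strand for the GC box GGGCGG, the TATA box TATAAA, the AP-1 motif TGANTCA, the E-box CACGTG and the GATA motif GATAAG, and matches are in capitals. In the VIM window GGGCGG occurs once, 46 bases before the start, and is held by 45.0% of the 35116 promoters. The KRT8 window is that of a start 23391 bases into the annotated gene and holds none of these letters. The other motifs are held by 11.5% (TATAAA), 7.71% (TGANTCA), 7.26% (CACGTG) and 6.36% (GATAAG) of promoters.
VIM, chr10:17227991-17228290, plus strand: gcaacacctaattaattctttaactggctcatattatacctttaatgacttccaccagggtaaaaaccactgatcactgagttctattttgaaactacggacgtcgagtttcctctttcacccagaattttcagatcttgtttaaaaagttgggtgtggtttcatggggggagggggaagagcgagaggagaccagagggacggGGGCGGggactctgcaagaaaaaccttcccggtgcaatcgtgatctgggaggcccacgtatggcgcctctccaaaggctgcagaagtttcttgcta
KRT8, chr12:52926420-52926719, minus strand: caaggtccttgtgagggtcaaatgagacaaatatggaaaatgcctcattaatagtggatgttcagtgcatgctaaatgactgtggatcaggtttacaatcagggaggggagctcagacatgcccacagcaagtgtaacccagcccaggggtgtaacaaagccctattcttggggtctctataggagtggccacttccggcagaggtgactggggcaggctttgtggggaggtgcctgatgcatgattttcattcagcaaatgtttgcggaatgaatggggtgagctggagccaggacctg

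KRT8, KRT18 and KRT19 were high in the hypoblast gate and several times lower, though present, in the embryonic gate, on both days. KRT8, the type II partner, stood at 2933 [2917, 2948] CPM in the hypoblast gate at D4 and 3249 [3232, 3266] at D6, against 447 [442, 452] and 368 [364, 372] in the embryonic gate. The hypoblast level was 6.56-fold higher at D4 and 8.83-fold higher at D6, or 2.71 [2.69, 2.73] and 3.14 [3.12, 3.16] as log2 ratios. KRT18, its usual type I partner, stood at 2984 and 3548 in the hypoblast gate and at 695 and 559 in the embryonic gate, log2 ratios of 2.10 [2.09, 2.12] and 2.67 [2.65, 2.68]. KRT19, a type I keratin without the usual tail domain, showed the widest gap, with 2401 and 2596 against 261 and 262, or 9.20-fold at D4 and 9.91-fold at D6. No level of these 3 keratins in the embryonic gate came near one in the hypoblast gate.

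The summed keratins were 5.92-fold higher in the hypoblast gate at D4 and 7.87-fold at D6, log2 ratios of 2.56 [2.55, 2.58] and 2.98 [2.97, 2.99]. Of the 4 members with a mean level of 5 or more over the gates, 3 (KRT8, KRT18 and KRT19) were 2-fold or more higher in the hypoblast gate on each day, beside 10.5% of the 10599 genes compared at D4 and 12.1% of the 10843 at D6. None was 2-fold or more lower, beside 7.42% and 10.3% of genes. Of all genes compared, 97.1%, 95.6% and 97.7% had a lower ratio than KRT8, KRT18 and KRT19 at D4, and 96.9%, 96.1% and 97.1% at D6.

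**Figure D1:**
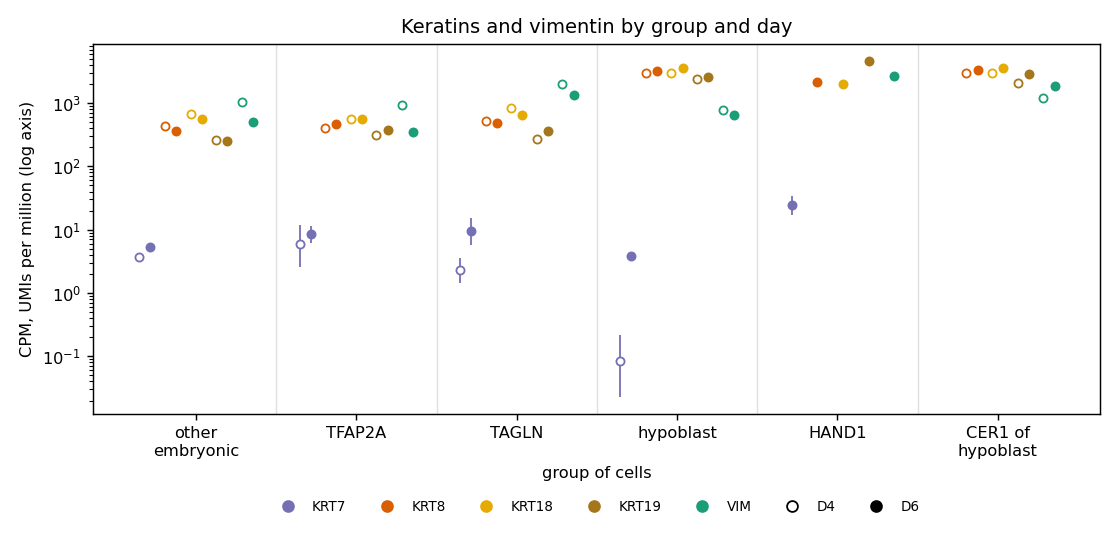
Level of each member in CPM (log axis) in 6 groups of cells, with open circles for D4 and filled circles for D6, and bars for 95% Poisson intervals. KRT8, KRT18 and KRT19 sit at 2017 or more in the hypoblast gate and the HAND1 cells and at 829 or less in the groups of the embryonic gate. VIM is highest in HAND1 cells at D6 (2671). HAND1 cells are not drawn at D4, where there were 6, and KRT7 is not drawn in CER1 cells, where it had no UMI.

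VIM did not follow the keratins, and the order of its summed levels between the gates turned from D4 to D6. At D4 it stood at 1166 [1157, 1175] CPM in the embryonic gate and 770 [762, 778] in the hypoblast gate, a log2 ratio of hypoblast over embryonic of -0.60 [-0.62, -0.58]. At D6 the levels were 518 [513, 523] and 657 [649, 665], a ratio of 0.34 [0.32, 0.37]. VIM was thus the highest of the 5 members in the embryonic gate at D4 and, at D6, lay below KRT18. In the hypoblast gate it was the lowest of the members other than KRT7 on both days.

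Put as a balance within the same cells, keratins made up 54.7% [54.4, 54.9] of keratin and VIM UMIs in the embryonic gate at D4 and 69.8% [69.5, 70.0] at D6. In the hypoblast gate the share was 91.5% [91.4, 91.6] and 93.5% [93.4, 93.5]. In single cells, 34.0% of embryonic-gate cells at D4 and 13.5% at D6 had more VIM than keratin UMIs, against 0.813% and 0.0561% in the hypoblast gate.

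**Figure D2:**
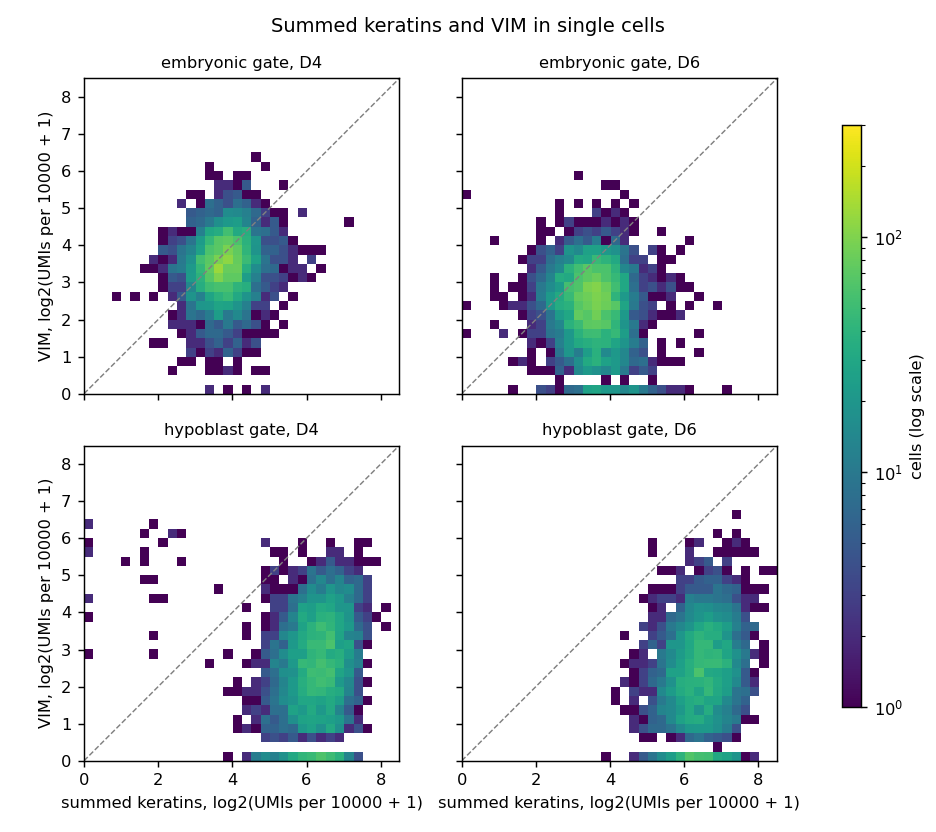
Cells of each gate and day by summed keratin UMIs (x axis) and VIM UMIs (y axis), both as log2 of UMIs per 10000 plus 1, with the number of cells on a logarithmic colour scale and a dashed line where both are equal. The embryonic gate lies across the line at D4 and mostly to its right at D6. The hypoblast gate lies to its right on both days, apart from a small set of keratin-poor cells at D4.

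The 3 abundant keratins were in nearly every hypoblast-gate cell. With each cell thinned to the lower UMI limit, 98.5% to 99.6% of hypoblast-gate cells had a UMI of KRT8, KRT18 or KRT19 on either day, each taken by itself. In the embryonic gate the shares were 75.8% at D4 and 67.7% at D6 for KRT8, 87.3% and 80.2% for KRT18, and 54.8% and 54.2% for KRT19. Without thinning they were 93.8% to 99.7%. VIM was detected in 93.6% of thinned embryonic-gate cells at D4 and 74.6% at D6, and in 73.6% and 70.3% of those in the hypoblast gate.

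RNA from broken hypoblast cells can reach other droplets, so the embryonic levels were set against APOA1, which should be absent there. APOA1 in the embryonic gate was 1.28% of its hypoblast level at D4 and 0.752% at D6. Hypoblast RNA at that ratio would bring 37.6 CPM of KRT8 at D4, or 8.42% of the level found, 5.51% for KRT18, 11.8% for KRT19 and 0.847% for VIM. At D6 the shares were 6.64%, 4.77%, 7.45% and 0.953%. In the TAGLN cells of D6 they were larger, at 20.1% for KRT8, 15.9% for KRT18, 21.5% for KRT19 and 1.46% for VIM. The mark rests on APOA1 alone, and the part of free or mixed hypoblast RNA in the embryonic levels was not tested.

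Among cells of the hypoblast gate, VIM was spread unevenly. In thinned cells the variance of VIM was 3.79 times its mean at D4 and 3.59 times at D6. That ratio was 3.92 and 5.23 for KRT18, 2.77 and 3.21 for KRT8 and 2.16 and 3.07 for KRT19, whose means were several times higher, so by this measure KRT18 was the more variable on both days. The tenth of cells with most VIM UMIs held 36.8% of them at D4 and 40.9% at D6, against 20.5% to 27.1% for these keratins. VIM had no UMI in 26.4% of thinned hypoblast-gate cells at D4, where a Poisson count of the same mean would give 7.49%. The means and hence the counting error differ between the genes.

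KRT8 and KRT18 went together from cell to cell. The Pearson correlation of log2(UMIs per 10000 + 1) was 0.81 over the 4061 hypoblast-gate cells of D4 and 0.79 over the 3567 of D6, and 0.42 on both days in the embryonic gate. KRT19 followed KRT8 less closely, at 0.55 and 0.25 in the hypoblast gate, and VIM showed weak values with each of the 3 (from -0.09 to 0.16 there). The cells share a library and a depth, and these values are descriptions. KRT8 UMIs per KRT18 UMI were 0.983 [0.975, 0.990] at D4 and 0.916 [0.909, 0.922] at D6 in the hypoblast gate, and 0.643 [0.633, 0.654] and 0.658 [0.648, 0.668] in the embryonic gate. KRT19 per KRT18 was likewise higher in the hypoblast gate, at 0.805 and 0.732 against 0.376 and 0.469.

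VIM in the embryonic gate was lower at D6 than at D4. The D6 level was 2.25-fold lower, a log2 ratio of -1.17 [-1.19, -1.15], and only 0.218% of the 10536 genes compared had a lower ratio. VIM was the 1 of 4 members that was 2-fold or more lower, beside 0.313% of genes, and none was 2-fold or more higher, beside 0.323%. VIM was lower at D6 in each group of the gate, by amounts that differed. The log2 ratio was -1.01 [-1.03, -0.99] in the other embryonic-gate cells (1022 to 507), -1.40 [-1.51, -1.29] in TFAP2A cells (920 to 348) and -0.61 [-0.67, -0.55] in TAGLN cells (2016 to 1324). The 5 markers of the anterior visceral endoderm summed to 173 CPM in the gate at D4 and 36.9 at D6, with 3 of the 5 at 2-fold or more lower, and the median MT- share of its cells was 3.82% and 1.93%. Their part in the VIM difference was not tested. In TFAP2A cells VIM was again the 1 of 5 members at 2-fold or more lower, beside 1.05% of genes. KRT8 and KRT18 were a little lower at D6 in the embryonic gate, with log2 ratios of -0.28 [-0.31, -0.26] and -0.31 [-0.33, -0.29], and KRT19 was level at 0.01 [-0.02, 0.04].

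In the hypoblast gate the same keratins were a little higher at D6. The log2 ratios were 0.15 [0.14, 0.16] for KRT8, 0.25 [0.24, 0.26] for KRT18 and 0.11 [0.10, 0.12] for KRT19, and VIM was lower at -0.23 [-0.25, -0.21]. None of the 4 members compared passed 2-fold, beside 2.65% of genes higher and 1.11% lower. KRT7 was too low to be compared. It went from 0.0836 CPM (4 UMIs) at D4 to 3.85 (161 UMIs) at D6, a log2 ratio of 5.53 [4.14, 7.42].

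**Figure D3:**
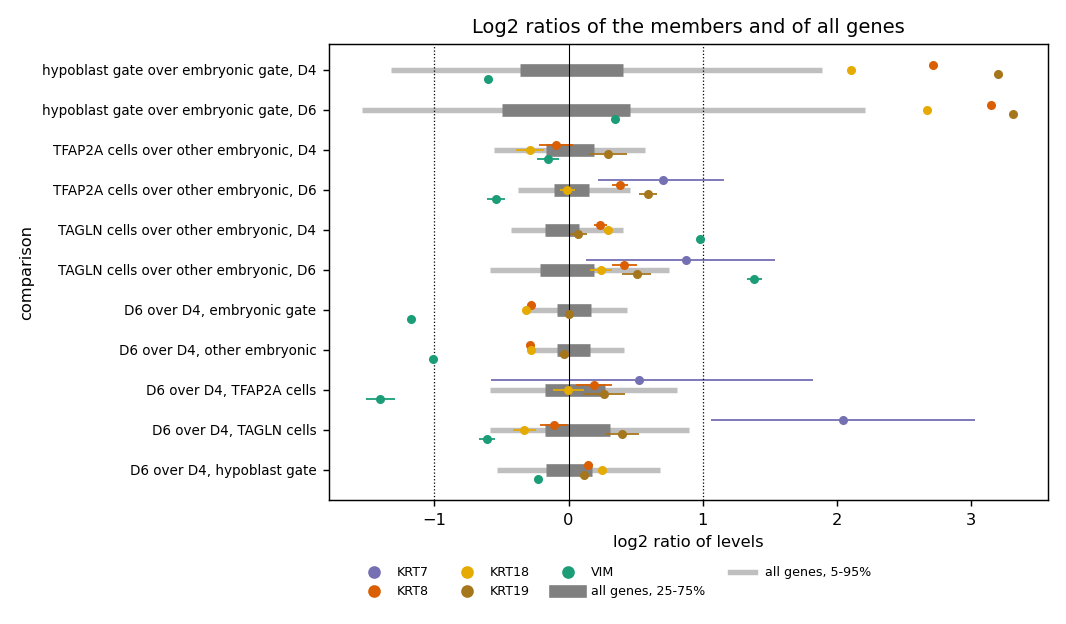
Log2 ratio of each member with a mean level of 5 or more (points with 95% intervals) in 11 comparisons, over grey bars for the 25th to 75th and the 5th to 95th percentiles of all genes compared. Dotted lines stand at 2-fold. The 3 abundant keratins lie beyond the 95th percentile between the gates, and VIM lies far below the 5th percentile for D6 over D4 in the embryonic gate.

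TAGLN cells had a higher VIM level than the other cells of the embryonic gate. They held 17198 of the 67394 VIM UMIs of the gate at D4 and 2603 of 38764 at D6. VIM stood at 2016 [1986, 2047] CPM in TAGLN cells at D4, against 1022 [1013, 1031] in the other cells. At D6 it was at 1324 [1273, 1376] against 507 [502, 513]. The level in TAGLN cells was thus 1.97-fold and 2.61-fold higher. Just under 2-fold at D4, no member passed that line among the 4 compared, beside 1.20% of genes. At D6 VIM was the 1 of 5 that did, beside 2.81% of genes. The VIM level climbed with each bin of TAGLN UMIs. At D4 it was 897 in cells with none, 1009 with 1 to 2, 1228 with 3 to 7, 1620 with 8 to 14 and 2477 with 15 or more. At D6 the same bins gave 480, 517, 657, 978 and 1579, below D4 in every bin. Of the 5 markers of the anterior visceral endoderm, CER1, LEFTY1 and LEFTY2 were 2-fold or more higher in TAGLN cells on both days and HHEX and SHISA2 were not, and the list summed to 542 CPM against 112 at D4 and 314 against 29.9 at D6. The part of such cells in the VIM difference was not tested. Deeper cells can reach a higher TAGLN count, and median depth went from 13455 to 18695 UMIs across the bins at D4 and from 13974 to 17572 at D6.

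The keratins differed less between TAGLN cells and the rest. At D4 the log2 ratios were 0.24 [0.19, 0.28] for KRT8, 0.30 [0.26, 0.33] for KRT18 and 0.07 [0.01, 0.13] for KRT19, and keratins were 44.5% of keratin and VIM UMIs against 57.3% in the other cells. At D6 the ratios were 0.42, 0.24 and 0.51. The D6 TAGLN cells also carried more APOA1 than the other cells, 352 against 81.4 CPM, and the summed level of 8 hypoblast markers was 2152 against 1198. With embryonic-gate cells of at most 2 APOA1 UMIs only, the ratio of the summed keratins at D6 went from 0.36 to -0.07 and that of KRT18 from 0.24 to -0.21. With at most 20000 UMIs per cell the D6 ratio of KRT18 was -0.14 and the D4 ratio of KRT19 -0.06. The part of hypoblast RNA in the keratin difference was not tested further.

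TFAP2A cells showed a lower VIM and a higher KRT19 at D6. VIM was at 348 [332, 365] CPM against 507 in the other cells, a log2 ratio of -0.54 [-0.61, -0.47] that only 2.24% of genes compared were below. KRT19 was at 379 [362, 396] against 251, a ratio of 0.59 [0.52, 0.66], and KRT8 at 466 [447, 485] against 358, a ratio of 0.38 [0.32, 0.44]. KRT18 did not part from the other cells (553 against 557). Keratins made up 80.1% [79.3, 81.0] of keratin and VIM UMIs, the highest share in any group of the embryonic gate. No member passed 2-fold in either direction, beside 0.711% of genes higher and 0.486% lower at D6 and 0.920% and 0.834% at D4. At D4, with 81 cells, KRT19 was at 316 against 258 and VIM at 920 against 1022.

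Across bins of TFAP2A UMIs at D6 (none, 1, 2 to 3, and 4 or more), KRT19 stood at 249, 310, 351 and 431 and VIM at 537, 439, 348 and 350. The KRT18 level moved little over these bins, from 562 to 524. At D4 VIM went from 1184 to 722, the last bin having 9 cells.

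**Figure D4:**
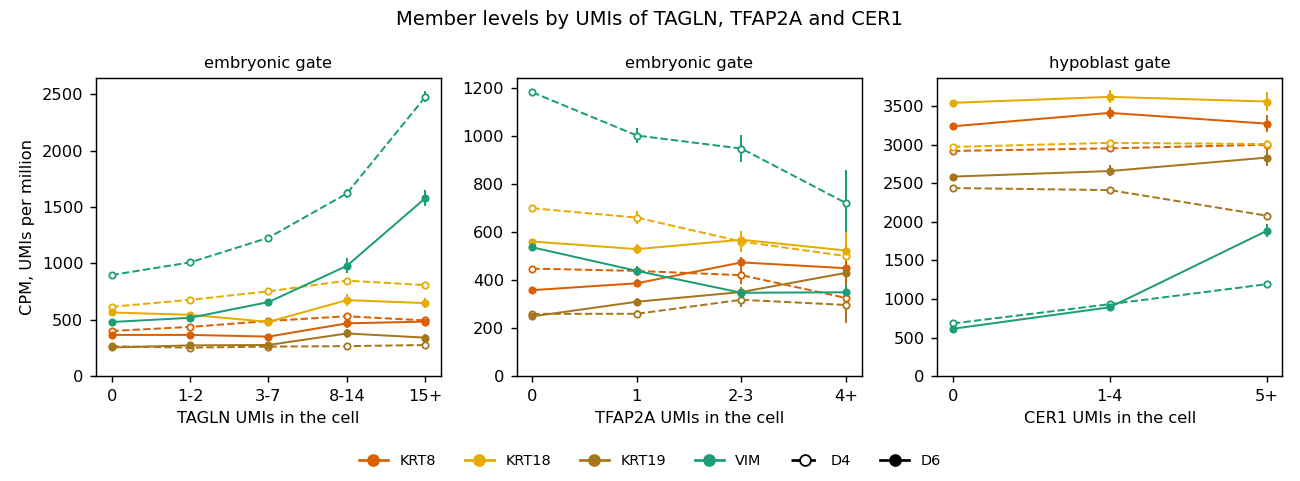
Levels of KRT8, KRT18, KRT19 and VIM in CPM by bins of TAGLN UMIs and of TFAP2A UMIs in the embryonic gate and of CER1 UMIs in the hypoblast gate, with 95% Poisson intervals, dashed lines for D4 and solid lines for D6. VIM climbs with TAGLN on both days, from 480 to 1579 at D6, and with CER1. With TFAP2A it goes down, at D6 up to the bin of 2 to 3 UMIs.

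KRT7 was scarce in all groups. In the embryonic gate it stood at 3.60 [3.13, 4.12] CPM at D4 (208 UMIs) and 5.61 [5.09, 6.18] at D6 (420 UMIs), and the cells that had it mostly had 1 UMI, with a highest value of 3. In thinned cells 1.29% and 1.90% had a UMI. In the hypoblast gate at D4 there were 4 KRT7 UMIs in 4061 cells, a level of 0.0836 [0.0228, 0.214], so the embryonic level was 43.0-fold higher, a log2 ratio of hypoblast over embryonic of -5.43 [-7.32, -4.05]. That value ran from -6.18 to -3.60 over 8 other settings, the latter with the gates set on thinned cells. At D6 the ratio was -0.54 [-0.81, -0.28], from 3.85 CPM in the hypoblast gate, and -0.01 with the gates set on thinned cells. After thinning, 0.0246% of hypoblast-gate cells had a KRT7 UMI at D4 and 0.813% at D6. In TFAP2A cells at D6 the level was 8.57 [6.23, 11.5], from 44 UMIs, against 5.27 in the other cells. The 10 trophoblast markers (CGA, GCM1, VGLL1 and others) summed to at most 0.12 CPM in either gate on either day. They were not summed for the cells in neither gate. KRT7 stood there at 1.40 CPM at D4 and 6.65 at D6. Of its 134 UMIs there at D6, 16 cells with 2 or more held 77, with up to 22 in a cell.

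At D6 the hypoblast gate held 161 KRT7 UMIs in 47 cells, and 24 cells with 2 or more UMIs held 138 of them, or 85.7%, with up to 16 in a cell. In the embryonic gate of the same day 33 cells with 2 or more held 67 of 420. The KRT7 of the hypoblast gate at D6 was therefore concentrated in few cells, and that of the embryonic gate was spread. In thinned cells the variance of KRT7 was 2.98 times its mean in the hypoblast gate at D6 and 0.981 times in the embryonic gate.

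Few cells of the hypoblast gate at D4 went against the rule of high keratins. In 25 of 4061 cells the 4 keratins together were under 10 per 10000 UMIs and below VIM, a limit set after the values had been seen, and at D6 no cell of the gate met it. They held 14, 5 and 5 UMIs of KRT8, KRT18 and KRT19 in all and 545 of VIM, or 4207 CPM. COL1A1, a fibrillar collagen of fibroblasts, stood at 4192 CPM in them against 17.3 in the rest of the gate, and COL1A2 at 2432 against 2.10. Of the 8 fibroblast markers, 7 had a UMI in these cells, and PDGFRB had none. All 8 also had UMIs in the rest of the gate. COL3A1, POSTN, LUM and DCN were higher in the 25 cells, DCN from 3 UMIs. THY1 rested on 2 UMIs, at 15.4 [1.87, 55.8] CPM against 10.1. The hypoblast genes APOA1, GATA4 and SOX17 were at 23.2, 7.72 and 7.72 against 1625, 72.6 and 93.1. APOA2, APOE and FOXA2 were lower too, and GATA6 was at 69.5 against 121. PDGFRA, of the same list, was higher, at 108 against 7.02. The median depth of the 25 cells was 4570 UMIs and their median MT- share 0.0943%, against 11037 and 3.76%. The stem cells had been kept on mouse fibroblasts, and whether these cells are feeders was not tested. Leaving out all cells with 5 or more UMIs of COL1A2 and COL3A1 (32 of the hypoblast gate at D4 and none at D6) moved the D4 log2 ratio of VIM between the gates from -0.60 to -0.62.

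Within the hypoblast gate, cells with CER1, a secreted antagonist made by the anterior visceral endoderm, had more VIM. At D4 VIM was at 683 [675, 692] in cells without a CER1 UMI, 933 [911, 955] with 1 to 4 and 1192 [1160, 1225] in the 336 cells with 5 or more. At D6 the values were 614, 893 and 1884 [1798, 1973], the last in 59 cells, and median depth went from 10788 to 15411 UMIs. KRT8 and KRT18 did not follow it (3009 for KRT18 in the cells with most CER1 at D4, 2973 in those without), and KRT19 was lower in the former at D4, 2081 against 2439, and higher at D6, 2833 against 2587. In 4 equal bins by rising APOA1 level at D6, KRT18 stood at 2847, 3410, 3817 and 4083 and KRT8 at 2862, 3176, 3438 and 3497, while VIM went from 822 to 587. At D4 KRT18 was at 2905, 2845, 2862 and 3315 over these bins, and VIM was highest, 955, in the last.

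Cells with 3 or more UMIs of HAND1, a mesoderm and amnion transcription factor, numbered 103 at D6. Their summed levels of keratins and of VIM were both above those of the embryonic gate. Of the 103 cells, 36 lay in the hypoblast gate, 8 in the embryonic gate and 59 in neither. VIM stood at 2671 [2588, 2755] CPM and KRT19 at 4540 [4433, 4650], above the level of each in the gates and in the TFAP2A, TAGLN and CER1 cells, and KRT8 and KRT18 at 2141 and 2017. KRT7 was at 24.2 [16.9, 33.5], from 36 UMIs of which 6 cells held 30. TBXT cells (63 at D6), marked by a gene of the primitive streak, had KRT8 at 2337, VIM at 786 and no KRT7 UMI. Of these 63 cells, 29 lay in the hypoblast gate, 11 in the embryonic gate and the rest in neither. Their levels are thus sums over a mixed set, and the part of the hypoblast-gate cells in the KRT8 level was not tested. All 5 members were, in HAND1 cells, 2-fold or more higher than in the embryonic gate, beside 9.84% of genes. Against the hypoblast gate VIM (4.07-fold) and KRT7 were, beside 8.09%. KRT19 outnumbered KRT18 by 2.25 [2.16, 2.35] to 1 in these cells, where every group of the gates had fewer KRT19 than KRT18 UMIs. Keratins were 76.6% of keratin and VIM UMIs. Without HAND1 cells the D6 log2 ratio of VIM between the gates was 0.25 in place of 0.34.

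**Figure D5:**
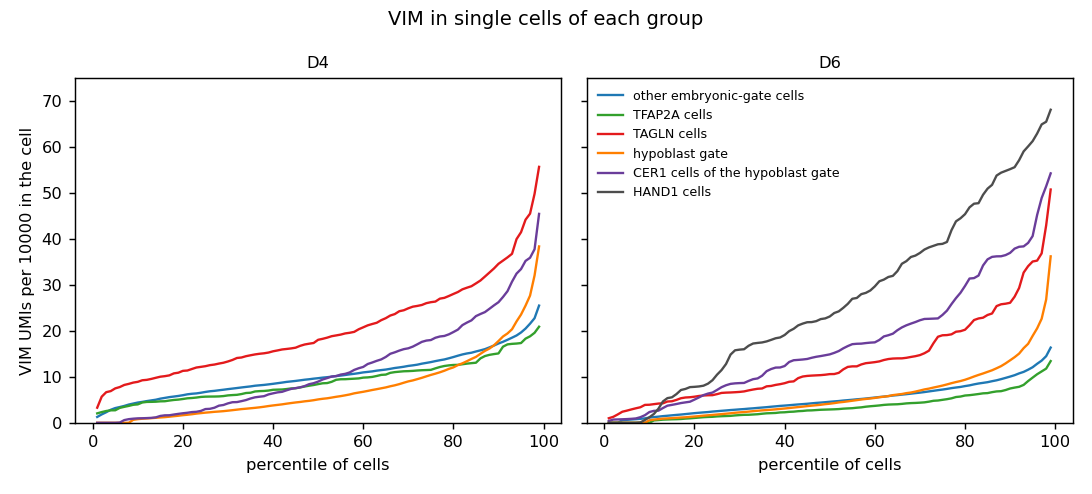
VIM UMIs per 10000 in single cells at each percentile of 6 groups at D4 and D6 (HAND1 cells at D6 only). TAGLN cells lie above all other groups at D4. At D6 the medians run from HAND1 cells (23.1) over CER1 cells (14.9) and TAGLN cells (10.6) to the other groups, which lie below 5.

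Other genes of the same structures were read from lists. Between the gates, the shares of all genes to set beside each count below are 10.5% higher and 7.42% lower by 2-fold or more at D4, and 12.1% and 10.3% at D6, with a median log2 ratio of -0.00 and -0.05. Of the 51 other KRT rows, 26 had no UMI in any kept cell, and KRT10, a type I keratin of stratified epithelia, was the 1 row at 5 or more CPM in a gate. It stood at 203 and 225 in the hypoblast gate and 125 and 131 in the embryonic gate. Of 14 other intermediate filament genes, 9 were compared at D4, of which 1 was 2-fold or more higher and 5 lower in the hypoblast gate. NES, a filament protein of progenitor cells that pairs with VIM, was at 44.6 against 110, and NEFM, a neurofilament, at 0.585 against 20.1. At D6 it was 2 higher and 5 lower of 10. The lamins LMNB1 and LMNB2 differed little, at 105 against 114 and 65.5 against 79.4 at D4.

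Desmosomes anchor keratin filaments to the cell border, and their genes were higher in the hypoblast gate. Of 7 compared of 14, 5 were 2-fold or more higher on each day and none lower. The median of their log2 ratios was 1.70 for D4 and 1.81 for D6, and that of all genes was -0.00 and -0.05. DSP, the plakin that binds keratins, stood at 312 against 58.9 at D4 and 352 against 74.9 at D6. PERP, a desmosomal membrane protein, was at 365 against 97.4 and 348 against 79.4, and PKP2, a plakophilin, at 50.2 against 11.5 and 54.6 against 10.2. DSG2, a desmosomal cadherin, was nearly alike, at 121 against 111 and 119 against 107. Of the filament linkers none of 5 passed 2-fold at D4 and none of 6 at D6. DST was at 143 against 138 at D4.

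The classical cadherins differed in opposite directions. CDH1, the cadherin of most epithelia, was at 1.67 CPM in the hypoblast gate against 43.6 at D4 and at 8.09 against 89.8 at D6, and CDH2, a cadherin of mesenchyme and of endoderm, at 359 against 43.3 and 415 against 20.1. Of 11 epithelial junction genes and regulators compared at D4, 4 were 2-fold or more higher and 2 lower, and 5 and 2 at D6. KLF5 (23.4 against 1.82, then 70.8 against 1.84) and CRB3 (31.3 against 11.4, then 67.1 against 13.8) were higher, and EPCAM was at 529 against 389 and 853 against 377. Of 12 mesenchymal genes and regulators only 4 were high enough to compare at D4 and 5 at D6, and 4 were 2-fold or more higher in the hypoblast gate on each day, with median log2 ratios of 2.16 and 1.77 over those compared. They include CDH2 and TWIST1 (23.4 against 0.450, then 63.3 against 0.855), a transcription factor of mesenchyme.

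The TAGLN cells were chosen on a gene of the actin cytoskeleton, and the contractile list was read beside VIM. That list also holds CCN1, CCN2, ANXA1, S100A10, S100A11 and LGALS1, which are not contractile proteins, and the counts take them in. Of 15 genes of the list compared, 7 at D4 and 8 at D6 were 2-fold or more higher than in the other embryonic-gate cells and none lower. The median log2 ratios were 0.93 and 1.45 against -0.05 and -0.02 for all genes. Of all genes 1.20% at D4 and 2.81% at D6 were that much higher. The markers of the anterior visceral endoderm had higher medians, 2.37 and 4.26. CALD1, caldesmon, was at 632 against 204 at D4 and 591 against 165 at D6, MYL9, a myosin light chain, at 170 against 59.2 and 221 against 30.2, and ANXA1 at 93.4 against 3.54 and 47.3 against 0.605. NES was at 219 against 91.4 and 198 against 69.7. In the D6 TFAP2A cells 4 of 12 epithelial genes were 2-fold or more higher, beside 0.711% of all genes. ELF3 (23.4 against 11.2) was among them. The D6 TAGLN cells had 3 of 10 epithelial genes that much higher, beside 2.81% of all genes. The median log2 ratio of these genes was 0.50 in the TAGLN cells and 0.28 in the TFAP2A cells. At D6 the embryonic gate had more CDH1 (43.6 to 89.8) and less CDH2 (43.3 to 20.1) than at D4, beside the lower VIM. CDH1 was the 1 of 9 epithelial genes compared that was 2-fold or more higher. CDH2 was the 1 of 3 mesenchymal genes that was that much lower. In the other embryonic-gate cells no gene of either list passed 2-fold, beside 0.209% of all genes higher and 0.219% lower. Of 15 genes of the contractile list 2 were 2-fold or more lower at D6 in the embryonic gate, beside 0.313% of all genes. None was that much higher, beside 0.323%.

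The genes whose levels were most like each member over 10 groups (5 groups of cells on each day, 6174 genes with a mean of 20 or more) were found by the Pearson correlation of log2(CPM + 1). For KRT8 these were S1PR3, MAGED2, FN1, MGST2 and TTN (0.99 to 1.00), and for KRT19 MCC, FAM184A, TBX3, ALDH2 and FN1. For KRT18 they were PLEKHJ1, TSPAN12, TEX264, CST3 and KRT8. FN1 is a gene of the gates. The groups of the embryonic gate had KRT8 at 514 CPM or less and the hypoblast gate at 2933 and 3249. Cells in neither gate lay between, at 2013 at D4 and 1719 at D6. How the spread over the groups divides among them was not computed. For VIM, ZYX (0.95), NDUFA9, ADRM1, PSMC2 and CYTOR came first, and for KRT7 YARS (0.95), MYO10, FBXO17, RND2 and ZNRF1. Over the same groups KRT8 correlated at 0.99 with KRT18 and KRT19, and VIM at -0.18 to -0.02 with these 3.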

How the data were processed

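Per the labels and the file headers, the authors aligned the 10x Genomics reads to hg38 and counted UMIs with Cell Ranger 6.0.1, and deposited raw UMI counts of 36601 genes per barcode, whole numbers with no normalization. The submitters' notes also name Seurat 4.0.1 and R 4.0.3. The 7 bisulfite libraries were not analysed here. No doublet caller was run, and the upper UMI limit and the gates were relied on.

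Cells with 3430 to 27500 UMIs and at most 10% of UMIs from MT- genes were kept. Counts were summed over the cells of a group and divided by their summed UMIs. Levels carry exact Poisson intervals, shares exact Clopper-Pearson intervals and log2 ratios exact conditional binomial intervals (95%, counting error only). Genes with a mean level of 5 or more over both groups were compared, and the call was a fold of 2 without a test. The named genes were the 5 members, the listed genes, and the 5 most alike per member. The members and lists were chosen with earlier results of these data known. For shares of cells, cells were thinned to 3430 UMIs. Interval code was tested on simulated data. Alternatives covered the total, cell filters, gates and thinning. Python 3.11.15, numpy 2.4.6, pandas 2.3.3, scipy 1.17.1 and matplotlib 3.10.9 were used.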

Additional observations from a re-analysis of the deposited data

Results flagged for a closer look

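Each of these results stands out because a pair of groups or days had log2 ratios of opposite sign. With 1 library a day the differences were not tested. From D4 to D6, KRT8 had a log2 ratio of -0.28 in the embryonic gate and 0.15 in the hypoblast gate. KRT18 had -0.31 and 0.25, and the summed keratins had -0.24 and 0.18. The keratins of the 2 compartments thus moved apart between the libraries.

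Within the embryonic gate, the D6 over D4 ratio of KRT8 was -0.29 in the other cells and 0.19 in TFAP2A cells, and that of the summed keratins -0.23 and 0.13. KRT19 had -0.0368 in the other cells, 0.26 in TFAP2A cells and 0.40 in TAGLN cells. The summed keratins of TFAP2A cells over the other cells were at -0.10 at D4 and 0.26 at D6, and KRT7 of TAGLN cells over the other cells was at -0.68, from 20 UMIs, at D4 and 0.88, from 19 UMIs, at D6. VIM in the hypoblast gate over the embryonic gate was at -0.60 at D4 and 0.34 at D6 by summed levels. The median over single cells was higher in the embryonic gate on both days.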

How the results depend on the processing

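Over 8 other settings the log2 ratio of the hypoblast over the embryonic gate kept its sign, at 2.49 to 2.60 (D4) and 2.81 to 3.04 (D6) for the summed keratins and -0.67 to -0.58 and 0.18 to 0.36 for VIM. The D4 and D6 values of the keratins and then of VIM were 2.49, 2.81, -0.67 and 0.18 without MT-, RPL and RPS genes in the total, 2.60, 3.04, -0.62 and 0.25 with stricter gates, and 2.50, 2.84, -0.63 and 0.27 with gates on thinned cells. With at most 20000 UMIs the keratins were at 2.59 and 3.00 and VIM at 0.24 (D6), with at most 5% MT- the D6 keratins at 2.99 and VIM at -0.67 and 0.30, with no cell filter the keratins at 2.55 and 2.96. At D6 a mean over cells gave 2.96 and 0.22 and thinned cells 2.96 and 0.21. Chosen after seeing the data, at most 2 APOA1 UMIs gave keratins of 2.61 and 3.01, leaving out HAND1 cells a D6 VIM of 0.25, and leaving out collagen cells a D4 VIM of -0.62.

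Of 523 values of single ratios 23 turned sign where the reported interval left out 0. Of the others 318 lay within the reported interval and 182 outside it. Sign changes where the reported interval held 0 are among the latter 2 counts and are not listed below. KRT7 of TFAP2A cells, D6 over D4, was such a case, at 0.52 as reported and down to -1.69. For TAGLN over other cells at D4, KRT19 was at -0.0582 with at most 20000 UMIs, -0.13 in thinned cells and -0.0214 with at most 2 APOA1 UMIs, and with gates on thinned cells (7 TAGLN cells at D4, 8 at D6) KRT8, KRT18, KRT19 and the keratins were at -0.11, -0.19, -0.0851 and -0.15. At D6, KRT18 and the keratins were at -0.14 and -0.0331 with at most 20000 UMIs, KRT18 and KRT19 at -0.00511 and -0.00181 with stricter gates, and KRT8, KRT18 and the keratins at -0.0312, -0.21 and -0.0686 with at most 2 APOA1 UMIs. For TFAP2A over other cells, stricter gates put the D4 keratins at 0.0861 and gates on thinned cells (4 and 12 TFAP2A cells) D4 VIM at 0.33 and D6 KRT7 at -0.15. For D6 over D4, stricter gates put KRT8 and the keratins of TFAP2A cells at -0.16 and -0.0855 and KRT19 of TAGLN cells at -0.0821. No cell filter put KRT8 and the keratins of TAGLN cells at 0.0428 and 0.0514. Gates on thinned cells put KRT8, KRT18 and the keratins of TAGLN cells at 0.79, 0.94 and 0.83, the keratins of TFAP2A cells at -0.00622 and KRT19 of the other cells at 0.13. The causes were not tested. Members at 2-fold went from 1 to 0 for D6 over D4 in the other cells under a mean over cells, MT- of at most 5%, 20000 UMIs, thinned cells and the reduced total. For TAGLN over other cells they went from 0 to 1 (D4) with stricter gates, and to 1 (D4) and 2 (D6) with thinned cells or thinned gates. Thinned gates also gave 1 for TFAP2A over other cells at D4, and 2 and 0 for D6 over D4 in TFAP2A and TAGLN cells.

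No paired analysis was possible because there was 1 library a day, and leaving out a replicate was not possible. Ranked correlations named mostly other genes as most alike. Depth limits KRT7 most, whose levels rest on 4 to 420 UMIs in the gates.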

Other observations

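The 24 hypoblast-gate cells of D6 with 2 or more KRT7 UMIs were set against the other 3543 cells of the gate. They were chosen on KRT7 after its values had been seen, so the following is a description. In them KRT19 stood at 3251 CPM (UMIs per 1000000) against 2592, while KRT8 was at 2441 against 3255 and KRT18 at 2088 against 3558. VIM was alike at 670 and 657. Ranked for the highest ratios were only genes at 50 CPM or more in the 24 cells and with a UMI in at least 12 of them. Among these, FGB, MTTP, IGSF1, AKR1D1 and VTN came first. Since that limit was set on the same 24 cells, it let in only genes with such levels there. FGB, a fibrinogen chain, was at 635 against 44.6 with a UMI in 18 of the cells. MTTP, which loads lipid onto apolipoprotein B, was at 99.6 against 11.5, and VTN, vitronectin, at 175 against 32.2. APOA1 was at 28360 against 11811. The lowest ratios were ranked among genes at 100 CPM or more in the other cells, which let in only genes with such levels there. Among these LEFTY1, a Nodal antagonist, was at 3.43 against 173 and LHX1 at 6.87 against 141. CER1, read from the marker list, was at 3.43 against 40.5. Of the 10 amnion markers, MSX2 was at 196 against 93.0 with a UMI in 20 of the cells, GATA3 at 185 against 223 with a UMI in 21, and IGFBP3 at 17.2 against 22.8. The other 7 and HAND1 had no UMI in these 24 cells, and their levels in the rest of the gate were 15.7 or less. Median depth was 11489 against 10901 UMIs.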
